A study of Mus musculus with 106 samples.

Results

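The comparison set 6 RiboTag immunoprecipitate (IP) libraries against 3 input libraries from the cerebrum of control mice whose parvalbumin (PV) neurons carried tagged ribosomes. The libraries were chosen by their labels alone (genotype Control, cell type PV, tissue Cerebrum, preparation RiboTag IP or Input) and were 9 of the 106 libraries of the series. It asked which mRNAs were more abundant, and which less, on the tagged ribosomes than in the whole tissue.

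The series profiled neuron classes of mice with a knock-in of Huntington's disease (HD). Control mice were Hdh Q7/Q7 littermates of Hdh Q7/Q200 (HD) mice on a 129S4 background, about 9 months old. All PV mice, control and HD, carried a PV-IRES-Cre allele of Pvalb and a RiboTag allele of Rpl22, each heterozygous, so that a cell with Cre adds a hemagglutinin (HA) tag to the ribosomal protein that Rpl22 encodes. The tag therefore marks any cerebral cell in which the Pvalb locus drives Cre, wherever it lies, and not interneurons of the cortex alone. The cerebral hemisphere was flash frozen without the olfactory bulb and cerebellum, and tagged ribosomes were precipitated with the 12CA5 anti-HA antibody. For PV mice duplicate precipitations of a homogenate were pooled, and input RNA came from the same homogenates. Libraries were poly(A)-selected and stranded. The sex of each mouse is not in the labels. The comparison groups were control Gad2 mice, in which Cre marks GABA neurons at large (6 IP and 3 input libraries), control SST mice, in which it marks somatostatin neurons (5 IP and 4 input), and HD PV mice (5 IP and 3 input). Control vGlut2 mice, in which it marks mostly subcortical glutamate neurons, had 6 IP and 3 input libraries.

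PV interneurons of the cortex, hippocampus and striatum fire long trains of brief action potentials and inhibit the cell bodies and axon initial segments of their targets. Fast potassium channels of the Kv3 family end each spike quickly, a fast vesicle release machinery follows it, and parvalbumin binds calcium in the terminal; many of these cells are wrapped in a perineuronal net and are rich in mitochondria. Parvalbumin is also made by some projection neurons of the pallidum, by neurons of the thalamic reticular nucleus and brain stem, and by cerebellar Purkinje cells.

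The IP libraries held 23256806 to 47869642 counts on mouse genes (median 31923798). The 3 input libraries held 47574093, 32421785 and 32431004. Levels are given below in CPM, counts relative to the total of a library after a scaling factor (TMM, 0.920 to 1.07 here) that aligns the bulk of genes between libraries. CPM does not correct for transcript length. The gene named with a sum is the one with the highest CPM averaged over the 9 libraries, and need not have the most mRNA molecules.

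Some libraries stood apart. The animal coded BP31 gave IP replicate 6 and input replicate 3, and both held fewer long transcripts than the rest. In the longest of 4 length groups (exon length of 6841 to 123179 bases), the median deviation of log2 CPM from the mean of the 9 libraries was 0.06 in IP replicate 6 and 0.17 to 0.34 in the other IPs. It was -0.78 in input replicate 3, against -0.22 and -0.13 in the other inputs. IP and input differed with length in the fit of all 9 libraries. The median log2 ratio of IP to input was -0.48 in the shortest group (204 to 2833 bases), then -0.19, 0.08 and 0.58. Of the shortest group 13.3% of genes were called higher in the IP and 49.2% lower, and of the longest 49.5% and 12.6%. The part of transcript length in any gene's ratio was not tested.

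IP replicate 2, and less so replicates 6 and 4, held transcripts of the cerebellum. The summed level of the 5 Purkinje and granule cell genes was 21.5, 510, 24.5, 90.8, 29.0 and 139 CPM in IP replicates 1 to 6 and 49.3, 17.9 and 19.4 CPM in the inputs. Car8, which encodes an inositol trisphosphate receptor binding protein of Purkinje cells, had the highest CPM of the 5 and stood at 249 CPM in IP replicate 2. Pcp2, a Purkinje cell modulator of G protein signalling, stood at 0.519, 83.5, 0.994, 16.4, 3.01 and 39.4 CPM in the IPs. Ddx3y, a Y-linked helicase chosen after its values were seen, was at 45.6 CPM in IP replicate 1, 48.9 in IP replicate 2 and 10.1 in input replicate 1, and at 0 in the other 6 libraries. Input replicate 1 and IP replicate 2 carry the code of 1 animal, BP9.

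**Figure D1:**
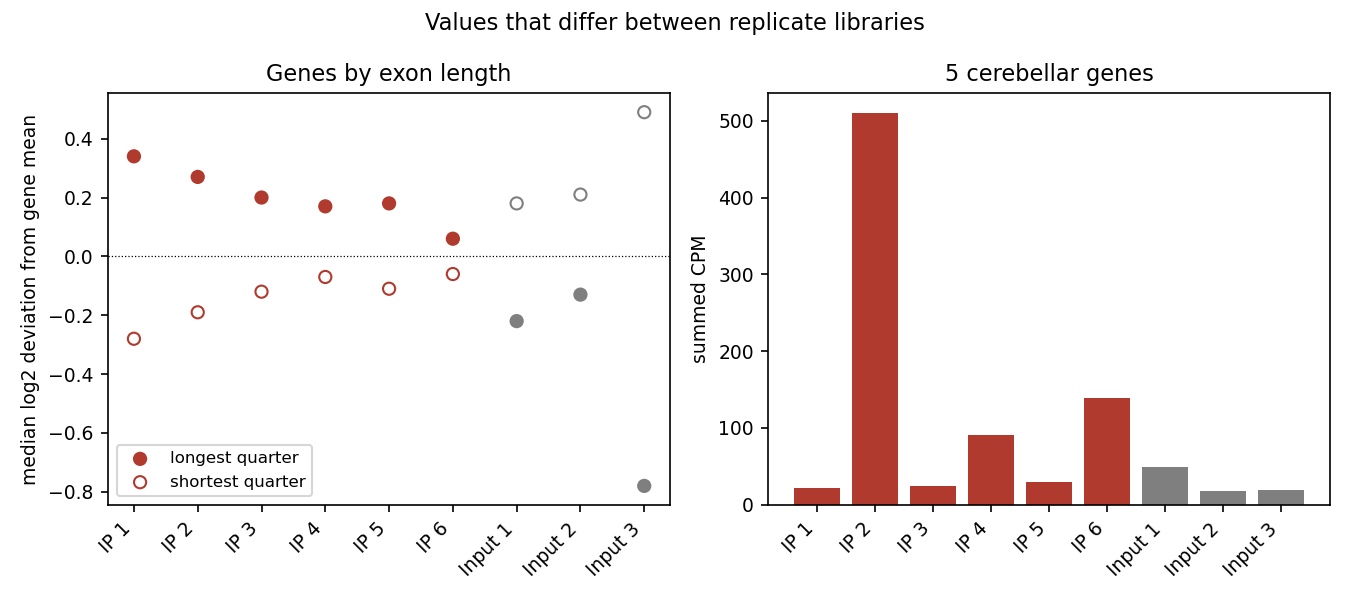
Library features that stand apart: the median deviation of log2 CPM in the longest transcripts and the summed CPM of 5 cerebellar genes, for each of the 6 IP and 3 input libraries. Input replicate 3 is lowest in the longest transcripts at -0.78, and IP replicate 2 is highest in cerebellar genes at 510 CPM.

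Most of the transcriptome differed between IP and input. Of 14701 protein-coding genes tested, 4189 (28.5%) were called higher in the IP and 4562 (31.0%) lower. A gene was called when its p-value from edgeR's quasi-likelihood test, adjusted for all genes by the Benjamini-Hochberg method, was at most 0.05; the effect is a log2 ratio of IP to input, on which 1 is 2-fold, and its standard error (SE) comes from the same fit. With a change of at least 2-fold as well, 2279 (15.5%) were higher and 2162 (14.7%) lower. The median log2 ratio over all genes tested was -0.01. An adjusted p above 0.05 does not show that IP and input did not differ. In bulk RNA, fewer cells of a type and less RNA per cell cannot be told apart, and a low ratio also does not show that PV neurons lack an mRNA.

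The 4 markers by which the IP was checked were all higher in every IP than in any input. Parvalbumin itself, the calcium buffer encoded by Pvalb (ENSMUSG00000005716.16), stood at 494 to 744 CPM in the 6 IPs (median 668) and at 81.7, 77.6 and 134 CPM in the inputs. The lowest IP was thus well above the highest input, and the log2 ratio was 2.75 (SE 0.218, edgeR adjusted p 5.54e-06). Syt2 (ENSMUSG00000026452.15), the fast calcium sensor of vesicle release in these cells, stood at 899 to 1102 CPM (median 962) against 243, 219 and 220. Its groups were the tightest of the 4, with a log2 ratio of 2.11 (SE 0.108, adjusted p 6.27e-07).

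Kcnc2 (ENSMUSG00000035681.7), which encodes the Kv3.2 channel subunit, stood at 179 to 392 CPM (median 339) against 59.7, 71.8 and 20.2. The lowest IP and the lowest input were the BP31 libraries, and the groups did not overlap. The log2 ratio of Kcnc2 was 2.64 (SE 0.397, adjusted p 3.25e-04). Pthlh (ENSMUSG00000048776.8), a secreted peptide related to parathyroid hormone, was far lower in level, at 9.92 to 16.0 CPM (median 13.4) against 3.81, 3.74 and 4.39. All 6 IPs of Pthlh exceeded all 3 inputs, with a log2 ratio of 1.73 (SE 0.174, adjusted p 2.50e-05). Per 1000 bases of exon the IP means were 632 CPM for Pvalb, 128 for Syt2, 44.1 for Kcnc2 and 8.14 for Pthlh. The 4 genes summed to 1746 to 2202 CPM in the IPs and to 388, 372 and 379 CPM in the inputs, with Syt2 the highest in CPM uncorrected for length.

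**Figure D2:**
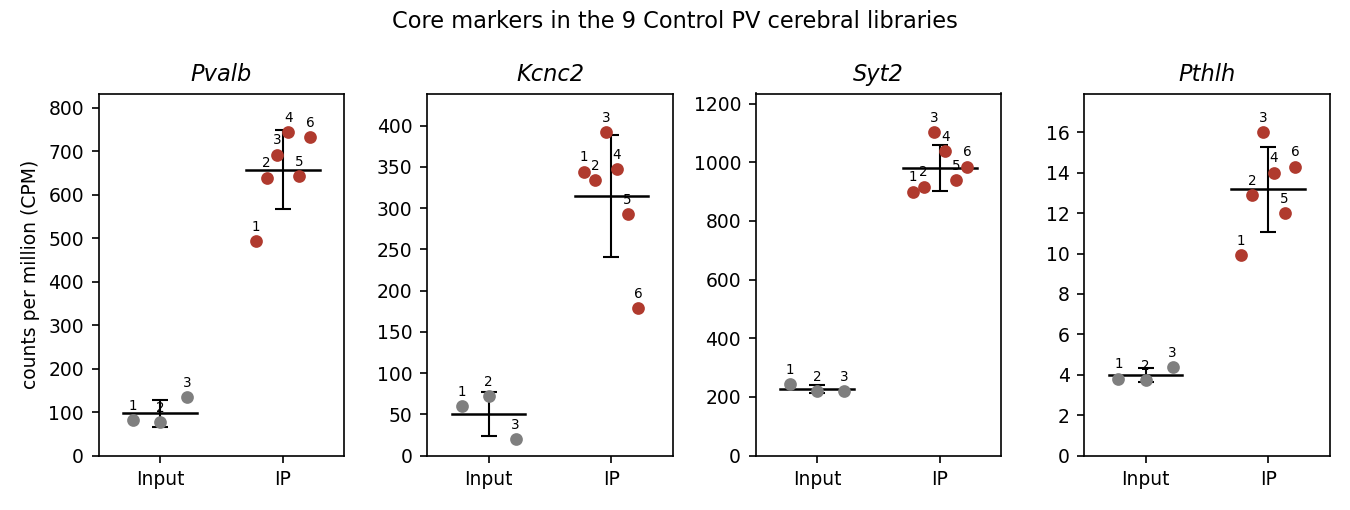
CPM of the 4 PV markers in each of the 6 IP and 3 input libraries of control PV cerebrum. For every marker the lowest IP lies above the highest input, as for Pvalb at 494 against 134 CPM.

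All 11 further genes listed for PV interneurons were called higher too, beside 28.5% of all genes. Their median log2 ratio was 1.93, against -0.01 over all genes. The paper had already reported Ank1, Nek7, Gpr176 and Cplx1 as enriched in PV samples of this series, as well as Syt2, Kcnc2 and Pthlh. Calls of those genes repeat its result on the same libraries and are not independent of it. Kcnc1, the Kv3.1 channel subunit that pairs with Kv3.2, stood at 810 to 992 CPM in the IPs against 274, 242 and 251 CPM, a log2 ratio of 1.80. Ank1, an ankyrin that anchors membrane proteins to the spectrin skeleton, had a log2 ratio of 1.93, and Nefh, the heavy neurofilament subunit of thick axons, 1.91. Those of Erbb4, the neuregulin receptor of interneurons, and Eya4, a transcriptional coactivator, were 3.05 and 3.61. Kcns3, a silent subunit that modifies Kv2 channels, had 2.35, the kinase gene Nek7 2.26 and the orphan receptor gene Gpr176 1.37. Btbd11, an ankyrin repeat protein of inhibitory neurons, had 1.64, and the complexin gene Cplx1 0.96, the lowest of the list.

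The same promoter window was read for the 4 markers, since all were higher in the IP. RefSeq (GRCm38.p6) lists 9 promoters for them, each from 250 bases before a transcript start to 50 after it. The motif AAGGTCA, the core of the response element of estrogen-related receptors, searched on both strands, was in 1 of the 9, an Syt2 promoter, at base 84 as its reverse complement TGACCTT, and in 4.72% of all 32851 promoters. Also searched on both strands were TCAAGGTCA and TNAAGGTCA, which overlap it and matched the same place (0.423% and 1.28% of all promoters). Of the E-box forms, CACCTG was in 2 of the 9 (20.2% of all promoters), CAGCTG in 5 (16.3%) and CANNTG, which contains both, in 7 (72.3%). The 9 include 3 overlapping windows of Kcnc2 that share 1 CAGCTG site, so its 5 are 3 sites in 2 genes, and the counts were not tested against the shares. GGGCGG was in 4 (35.7%). In 0 of the 9 were TATAAA (13.6%), TGACGTCA (1.79%), the searched part of the RE1 element (0.137%) and the MEF2 element (0.557%). A match is a description of the letters and names no factor bound there. The first listed promoter of each marker follows, 5′ to 3′, with AAGGTCA in either orientation in capitals.
Pvalb, chr15:78206351-78206650, minus strand: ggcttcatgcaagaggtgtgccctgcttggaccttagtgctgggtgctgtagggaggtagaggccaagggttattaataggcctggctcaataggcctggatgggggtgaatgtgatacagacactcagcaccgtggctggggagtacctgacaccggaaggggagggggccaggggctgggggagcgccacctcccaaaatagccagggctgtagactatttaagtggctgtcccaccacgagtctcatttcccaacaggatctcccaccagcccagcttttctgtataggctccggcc
Kcnc2, chr10:112269767-112270066, plus strand: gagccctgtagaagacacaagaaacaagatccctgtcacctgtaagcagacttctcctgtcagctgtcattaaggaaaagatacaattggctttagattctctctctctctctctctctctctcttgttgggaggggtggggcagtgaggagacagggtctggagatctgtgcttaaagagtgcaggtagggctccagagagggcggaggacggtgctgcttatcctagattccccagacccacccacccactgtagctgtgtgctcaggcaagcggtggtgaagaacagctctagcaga
Syt2, chr1:134646362-134646661, plus strand: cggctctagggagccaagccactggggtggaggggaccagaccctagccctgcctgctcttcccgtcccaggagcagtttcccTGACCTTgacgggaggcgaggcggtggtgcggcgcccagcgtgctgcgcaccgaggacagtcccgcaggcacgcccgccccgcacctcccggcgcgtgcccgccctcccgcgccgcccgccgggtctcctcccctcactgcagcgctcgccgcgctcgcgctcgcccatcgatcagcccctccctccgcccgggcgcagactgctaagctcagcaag
Pthlh, chr6:147263964-147264263, minus strand: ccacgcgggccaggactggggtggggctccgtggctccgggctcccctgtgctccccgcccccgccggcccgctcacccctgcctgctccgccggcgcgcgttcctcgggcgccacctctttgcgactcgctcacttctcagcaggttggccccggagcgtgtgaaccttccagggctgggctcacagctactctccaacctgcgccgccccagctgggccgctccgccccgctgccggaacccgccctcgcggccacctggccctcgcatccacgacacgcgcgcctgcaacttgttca

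Genes of GABA handling were higher in the IP. All 5 of synthesis, packaging, uptake and breakdown were called higher, beside 28.5% of all genes (median log2 ratio 1.17). Gad1, the main GABA-synthesising enzyme, stood at 1418 to 2162 CPM in the IPs (median 1976) and at 340, 357 and 238 CPM in the inputs. No library overlapped, and the log2 ratio was 2.61 (SE 0.184, edgeR adjusted p 2.91e-06). The ratios of the synaptic enzyme Gad2 and of the vesicular transporter gene Slc32a1 were 1.53 and 1.17. Abat, which degrades GABA, had 0.80.

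Transcription factors of forebrain interneurons mostly followed. Of 13, 10 were called higher and 2 lower, beside 28.5% and 31.0% of all genes, with a median log2 ratio of 1.37. Lhx6, which specifies interneurons born in the medial ganglionic eminence, stood at 61.5 to 82.2 CPM against 18.0, 18.1 and 19.5 CPM in the inputs, a log2 ratio of 1.93. Maf, which acts downstream in the same lineage, had 1.64, and Sox6 and Satb1, which mature it, 1.73 and 1.49. Dlx1, shared by forebrain GABA neurons, had 1.37. Lhx8, a factor of cholinergic and pallidal neurons, was lower at -0.93.

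Genes of GABA and glycine neurons farther back in the brain were also present. Of the 11 caudal genes 6 were called higher and 2 lower (median log2 ratio 0.62). Of the 12 hindbrain Hox genes 5 were called higher and 7 not called (median 0.61), beside 28.5% of all genes called higher. Slc6a5, the glycine transporter of inhibitory terminals in the hindbrain, stood at 81.8 to 133 CPM in the IPs against 25.3, 45.7 and 16.5 CPM in the inputs. Its groups did not overlap, and its log2 ratio was 1.82 (adjusted p 7.53e-04). Sox14, a factor of some subcortical GABA neurons, had 1.11, and the hindbrain patterning gene Hoxa5 1.75 at no more than 9.56 CPM. The call of Hoxa5 was lost without input replicate 1 (adjusted p 0.0501) and, chosen after seeing the data, without IP replicates 2, 4 and 6 (adjusted p 0.0520). The summed level was 115 to 175 CPM for the caudal list against 57.3, 79.0 and 47.3 CPM, and 36.4 to 61.2 CPM for the Hox list against 25.8, 38.8 and 21.3 CPM, where the groups overlap. No gene of either list was at 0 in all 9 libraries. Which cells these transcripts came from was not tested.

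The 5 cerebellar genes had uneven values. Their median log2 ratio was 2.23, but edgeR called none of them, with adjusted p from 0.0619 for Car8 to 0.279 for Cbln3, while DESeq2 called 3 (Pcp2, Car8 and Ppp1r17). With the animal as a block all 5 were called, Pcp2 at 3.38, Car8 at 2.31, the phosphatase inhibitor gene Ppp1r17 at 2.59, the granule cell receptor subunit gene Gabra6 at 2.05 and the granule cell cerebellin gene Cbln3 at 1.98. That fit takes its ratios only from animals with both an IP and an input, whose IPs are replicates 2, 5 and 6. Replicates 2 and 6 had the highest sums of these genes (510 and 139 CPM). With the animal as a random effect only Car8 was called. Without IP replicates 2, 4 and 6, an exclusion chosen after seeing the data, Pcp2 fell to -0.89, Gabra6 to -1.61 and Cbln3 to -1.29, while Car8 was at 0.25 and Ppp1r17 at 0.03, none called. All 5 were above 0 in every library.

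Lists of markers of other neurons differed in how many genes were lower in the IP. Of 18 genes of other interneuron classes 8 were called lower, 4 higher and 6 not called (median log2 ratio -0.44). Over all genes, 31.0% were called lower and 28.5% higher. Sst, the peptide of the sister interneuron class, stood at 73.4 to 139 CPM in the IPs against 211, 257 and 408 CPM in the inputs, a log2 ratio of -1.48. The peptide genes Vip and Cck had -2.24 and -2.71, the chemokine gene Cxcl14 -3.07 and the tachykinin gene Tac2 -3.66. Crhbp, the binding protein of corticotropin releasing hormone, was higher at 1.71, as were the RNA editing protein gene Adarb2 at 1.62 and the secreted factor gene Ndnf at 0.97, whose call was lost with the animal as a block (0.91, adjusted p 0.0522). The summed level of the 18 was 694 to 852 CPM in the IPs and 1259, 1273 and 1737 CPM in the inputs, with Lamp5 the highest in CPM.

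Of 16 striatal projection neuron genes 11 were called lower, beside 31.0% of all genes, and 5 were not called (median log2 ratio -1.05). Ppp1r1b, the dopamine-regulated phosphatase inhibitor DARPP-32, stood at 45.7 to 97.3 CPM in the IPs against 485, 416 and 785 CPM, a log2 ratio of -3.06. Penk, the enkephalin precursor of the indirect pathway, had -2.74 and the dopamine receptor gene Drd2 -1.23. The other receptor gene, Drd1, overlapped between groups at 18.2 to 28.8 CPM against 27.2, 28.5 and 17.8 CPM; its ratio of -0.06 was not called and turned to 0.06 when library totals replaced TMM. The 16 genes summed to 771 to 1005 CPM in the IPs and 1998, 1826 and 2676 CPM in the inputs, with the adenylyl cyclase gene Adcy5 the highest in CPM.

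Of 12 cortical and hippocampal glutamatergic genes 9 were called lower and 2 higher (median log2 ratio -1.06), beside 31.0% and 28.5% of all genes. Slc17a7, the vesicular glutamate transporter of these cells, stood at 780 to 1018 CPM in the IPs against 1970, 1429 and 2207 CPM, a log2 ratio of -1.07. The calmodulin-binding protein gene Nrgn had -3.37 and the kinase gene Camk2a -0.71, while Cux2, a factor of upper cortical layers, was higher at 0.46. The sum was 2837 to 3597 CPM in the IPs and 7230, 5707 and 7756 CPM in the inputs, Camk2a having the highest CPM.

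Of 8 subcortical glutamatergic genes 2 were called higher, 2 lower and 4 not called (median log2 ratio -0.32), near the shares over all genes (28.5% and 31.0%). Slc17a6, the vesicular glutamate transporter of thalamus and brain stem, stood at 79.7 to 152 CPM in the IPs and at 58.5, 77.1 and 18.8 CPM in the inputs. The lowest IP, replicate 6, was close above the highest input, and the log2 ratio was 1.28 (SE 0.374, adjusted p 0.0132). The orphan receptor gene Rora had 1.67 with overlapping groups, and the thalamic factor genes Lef1 and Shox2 -1.23 and -0.74. The sum of the 8 was 243 to 380 CPM in the IPs and 246, 270 and 174 CPM in the inputs, with Slc17a6 the highest in CPM. Of 11 monoaminergic and cholinergic genes 7 were called lower and 4 not called (median -1.41), and the lower ones included the transporter genes Slc6a3 of dopamine neurons at -2.81 and Slc6a4 of serotonin neurons at -2.94.

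Genes of glia and vessels were mostly lower in the IP than in the input, but not absent from it. Whether those transcripts came from tagged ribosomes was not tested. In the IP 11 of 13 astrocyte genes were called lower (median log2 ratio -1.83), 9 of 12 oligodendrocyte genes (-1.70), 3 of 5 genes of oligodendrocyte precursors (-0.81), 13 of 13 microglia genes (-2.63), 8 of 11 endothelial genes (-1.45), 5 of 8 mural cell genes (-1.43) and 3 of 7 ependymal and choroid plexus genes (-0.47). None of these genes was called higher except the mural gene Myh11, a smooth muscle myosin with at most 3.91 CPM in any library, at 2.04. Against these lists stand 31.0% of all genes called lower.

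Gfap, the intermediate filament of astrocytes, stood at 35.4 to 54.5 CPM in the IPs against 249, 225 and 279 CPM, a log2 ratio of -2.48. The lipid carrier gene Apoe had -4.19, while the glutamate transporter gene Slc1a2 overlapped between groups (0.58, not called). Mbp, a myelin protein, stood at 571 to 1086 CPM against 3225, 3264 and 4482 CPM (-2.18), and the myelin gene Opalin had -3.26. The microglial genes Tmem119, C1qb and Tyrobp had -3.41, -4.55 and -4.37, the tight junction gene Cldn5 of endothelium -2.46 and the choroid plexus carrier gene Ttr -3.89. No gene of these lists was at 0 in all libraries.

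Summed levels per library give the signal left of each list and do not count cells. The gene in brackets has the highest CPM averaged over the 9 libraries, and need not be the highest in the IPs. Astrocyte genes summed to 2195 to 2879 CPM in the IPs and 7150, 6372 and 7532 CPM in the inputs (highest CPM in Apoe), and oligodendrocyte genes to 1861 to 2902 and 6055, 6192 and 7143 CPM (Mbp). Precursor genes summed to 81.5 to 113 against 132, 126 and 109 CPM (Pdgfra). Microglia genes summed to 131 to 159 against 560, 497 and 708 CPM, and endothelial genes to 70.2 to 96.7 against 253, 240 and 241 CPM (Slc2a1). Mural genes summed to 42.0 to 61.0 against 189, 150 and 200 CPM (Vtn), and ependymal genes to 264 to 330 against 1203, 880 and 1407 CPM (Ttr). Every IP was below every input in these classes except the precursors, where the ranges overlap.

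**Figure D3:**
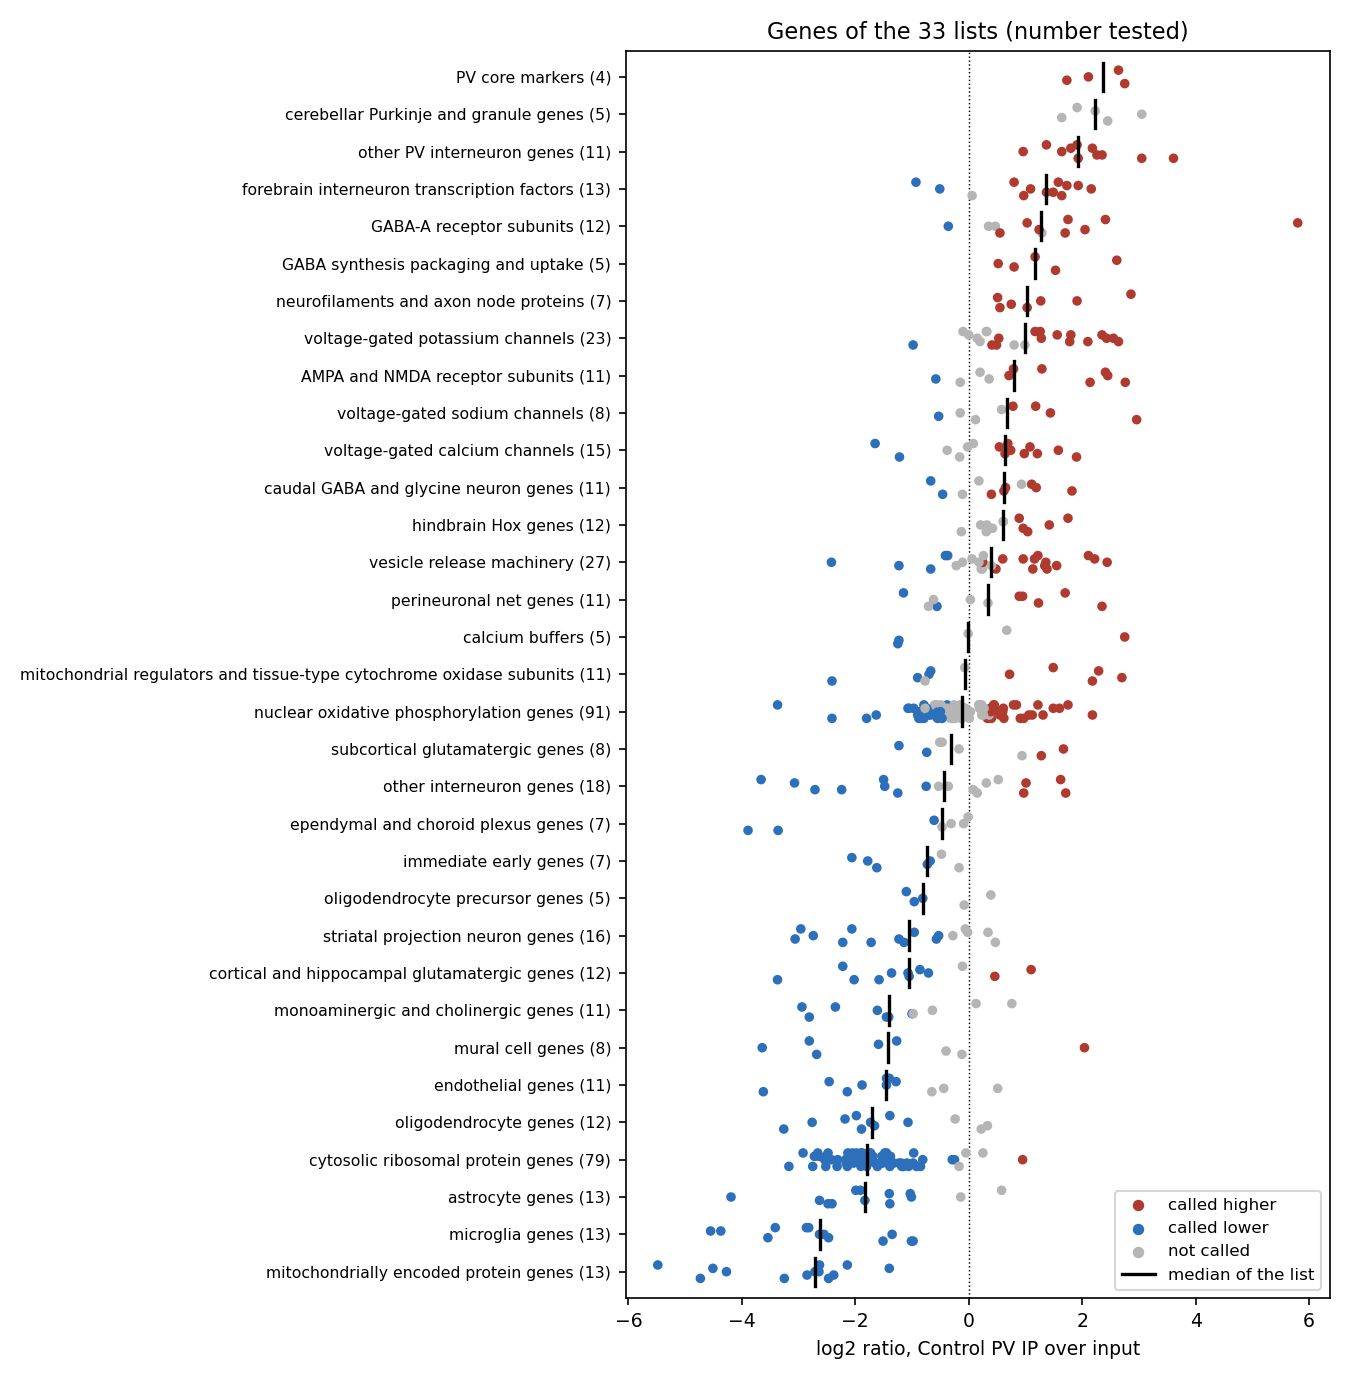
Log2 ratio of IP to input for the genes of each list, with the median of the list. The 4 PV markers have a median of 2.37 and the microglia genes of -2.63, beside -0.01 over all genes tested.

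Of the ion channel genes listed, more were called higher in the IP than lower. Calls also varied with exon length over all genes. Of the longest group 49.5% were higher and 12.6% lower, and of the shortest 13.3% and 49.2%. The lists here and below were not matched for length, and its part in their counts was not tested. Of 23 potassium channel genes 14 were called higher and 1 lower (median log2 ratio 0.99), beside 28.5% and 31.0% of all genes. While Kcnc1 and Kcnc2 were higher, the Kv3 subunit gene Kcnc4 was lower at -0.98. Kcnab3, an auxiliary subunit of Kv1 channels, stood at 370 to 469 CPM in the IPs against 67.6, 75.8 and 69.8 CPM, a log2 ratio of 2.55. Kcna2, a Kv1 subunit of axons, had 2.43. Of 8 sodium channel genes 4 were called higher, 1 lower and 3 not called (median 0.68), beside 28.5% and 31.0% of all genes. Scn1a, the main axonal sodium channel of PV cells, stood at 179 to 385 CPM against 41.5, 73.7 and 8.11 CPM, a log2 ratio of 2.96 (SE 0.577, adjusted p 0.00154). Scn8a, the channel of the axon node, had 1.44 and the auxiliary subunit gene Scn3b -0.53.

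Of 15 calcium channel genes 9 were called higher and 2 lower (median log2 ratio 0.64), beside 28.5% and 31.0% of all genes. The subunit genes differed in direction: the pore gene Cacna1e had 1.58 and the cytoplasmic subunit gene Cacnb4 1.90, while the related Cacnb1 and Cacnb3 had -1.65 and -1.22. Of the 6 calcium buffer genes 5 were tested, 1 higher (Pvalb) and 2 lower (median -0.01), beside 28.5% and 31.0% of all genes. Calbindin, from Calb1, was not called, though it was with all control inputs (0.63, edgeR adjusted p 0.0297). Calretinin, from Calb2, was lower at -1.25.

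Of 27 genes of vesicle release 14 were called higher and 5 lower (median log2 ratio 0.40), beside 28.5% and 31.0% of all genes. Close relatives parted. The calcium sensor gene Syt1, which most forebrain neurons use, was at 822 to 1120 CPM in the IPs and 1028, 957 and 657 CPM in the inputs, and its ratio of 0.18 was not called, against 2.11 for Syt2. Vamp1, a vesicle SNARE, stood at 1163 to 1554 CPM against 487, 497 and 540 CPM, a ratio of 1.38. Its relative Vamp2 stood at 801 to 1047 against 2164, 1626 and 2413 CPM, a ratio of -1.23. The complexin Cplx1 was higher at 0.96, and Cplx2 overlapped at -0.11, which turned to 0.02 with library totals in place of TMM. The target membrane SNARE genes Snap25 and Stx1a had 1.55 and -2.42, and the vesicle GTPase gene Rab3c and priming factor gene Unc13c 2.22 and 2.44. Whether members of a pair differed in ratio was not tested.

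Of 12 perineuronal net genes 11 were tested, 5 higher and 2 lower (median log2 ratio 0.34), beside 28.5% and 31.0% of all genes. The link protein genes Hapln1 and Hapln4, which fix the net to hyaluronan, were higher at 2.35 and 1.23. Acan, the aggrecan core protein, had a ratio of 0.34, which was not called, and its IPs and inputs overlapped. It was called with library totals (0.47), all control inputs (0.53), a genotype covariate (0.63) and the animal as a random effect, without input replicate 3 (0.54), and without BP31 (0.50), an exclusion chosen after seeing the data. The brevican gene Bcan, which glia also express, was lower at -1.15.

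Genes of receptor subunits were mostly called higher in the IP, beside 28.5% of all genes called higher and 31.0% lower. Of 11 AMPA and NMDA receptor genes 7 were called higher and 1 lower (median log2 ratio 0.79), with Gria3 and Gria4, AMPA subunits, at 2.76 and 2.41 and the NMDA subunit gene Grin2b at 2.45. Of 12 GABA-A receptor genes 8 were called higher and 1 lower (median 1.27), with Gabrb2 at 2.41. All 7 genes of neurofilaments and the axon node were higher (median 1.03). Nefm, the medium neurofilament subunit, stood at 1043 to 1325 CPM in the IPs against 165, 200 and 111 CPM, a ratio of 2.86. The light subunit gene Nefl had 0.75 and Ank3, the ankyrin of the initial segment, 1.27. Of 7 immediate early genes 5 were called lower and 2 not called (median -0.73), beside 31.0% of all genes called lower. The lower ones included Egr1, an activity-induced factor, at -2.06.

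Of 11 regulators and tissue-type cytochrome oxidase subunits 5 were called higher and 4 lower (median log2 ratio -0.07), beside 28.5% and 31.0% of all genes. Ppargc1a, a coactivator of mitochondrial genes, stood at 59.6 to 130 CPM in the IPs against 24.5, 33.3 and 7.94 CPM, a ratio of 2.29. The nuclear receptors that work with it, Esrrg and Esrra, had 2.70 and 0.72. Cox6a2, the muscle-type oxidase subunit, stood at 19.7 to 30.0 CPM against 4.84, 4.38 and 7.74 CPM, a ratio of 2.18, while the general type Cox6a1 was lower at -0.67. The muscle-type Cox8b was higher at 1.49 and the general Cox8a lower at -0.90; the lung-type Cox4i2 was at -2.41. Not every pair followed, as the muscle-type Cox7a1 had -0.77 and the general Cox7a2 -0.07, neither called. Of 93 nuclear genes of oxidative phosphorylation and its assembly 91 were tested, 26 higher and 24 lower (median -0.12), near the shares over all genes (28.5% and 31.0%).

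All 13 protein genes of the mitochondrial genome were lower (median log2 ratio -2.71), with 2409 to 6696 CPM in all in the IPs and 34696, 60550 and 13289 CPM in the inputs. The gene with the highest CPM, mt-Co1 of an oxidase subunit, had a ratio of -2.14. Of 81 cytosolic ribosomal protein genes 79 were tested, 75 lower and 1 higher (median -1.79), beside 31.0% and 28.5% of all genes. Rpl22, whose protein bears the tag, stood at 45.2 to 63.5 CPM in the IPs (median 56.7) and at 86.9, 86.5 and 126 CPM in the inputs, a ratio of -0.81 (SE 0.149, adjusted p 0.00104). Its paralog Rpl22l1 had -1.23. Mitochondrial reads can also come from near-identical nuclear copies, and ribosomal protein reads from pseudogenes, so these levels are uncertain.

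The 15 highest ratios came from 6255 called protein-coding genes whose groups did not overlap and whose mean in the higher group was at least 5 CPM. Among them was Cog7, a Golgi tethering subunit, with 1163 to 1773 CPM in the IPs and 51.3, 46.1 and 47.4 CPM in the inputs, a log2 ratio of 4.90 (edgeR adjusted p 3.87e-07).

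Some of the 15 are muscle or matrix proteins. Myl1, a fast muscle myosin light chain, stood at 19.3 to 27.9 CPM in the IPs against 0.401, 1.11 and 1.17 CPM, a log2 ratio of 4.69 (adjusted p 3.40e-06). Mybpc1, a myosin binding protein of slow muscle, stood at 25.2 to 38.5 CPM against 2.39, 1.46 and 1.41 CPM, a ratio of 4.08 (adjusted p 1.06e-06). Spp1, the secreted matrix protein osteopontin, stood at 241 to 382 CPM against 24.8, 33.3 and 16.6 CPM, a ratio of 3.60 (adjusted p 3.28e-06). In each of these genes the lowest IP was several-fold above the highest input. Others encode general cell proteins: the transcription initiation factor gene Taf1 had 4.63, the kinase gene Rock2 4.57, the DNA-binding protein gene Ahdc1 4.49 and the Golgi tether gene Golga4 4.01. Eif3a, a translation initiation factor, had 3.56, the inositol phosphate kinase gene Ppip5k2 3.79, the GTPase activator gene Arhgap11a 3.73, the ciliary gene Cep290 3.67 and Eya4 3.61. The zinc finger gene Zfp966 had 4.71, with input replicate 3 at 0.

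The ratios of these genes varied between the lines, each against its own inputs. Cog7 had a log2 ratio of 2.66 in Gad2, 4.77 in SST and 1.75 in vGlut2 mice. In the same order Taf1 had 1.54, 4.29 and 1.77, and Rock2 2.23, 4.90 and 3.15. For Ahdc1 the values were 2.82, 4.24 and 1.55, for Golga4 1.32, 4.33 and 2.13, and for Eif3a 1.63, 3.80 and 2.10. All 6 were thus also positive in glutamate neurons. Myl1 had 2.57, 0.22 and -3.17, Mybpc1 1.77, -0.14 and 0.59, and Spp1 0.89, 1.02 and 1.03, against 4.69, 4.08 and 3.60 in PV mice.

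**Figure D4:**
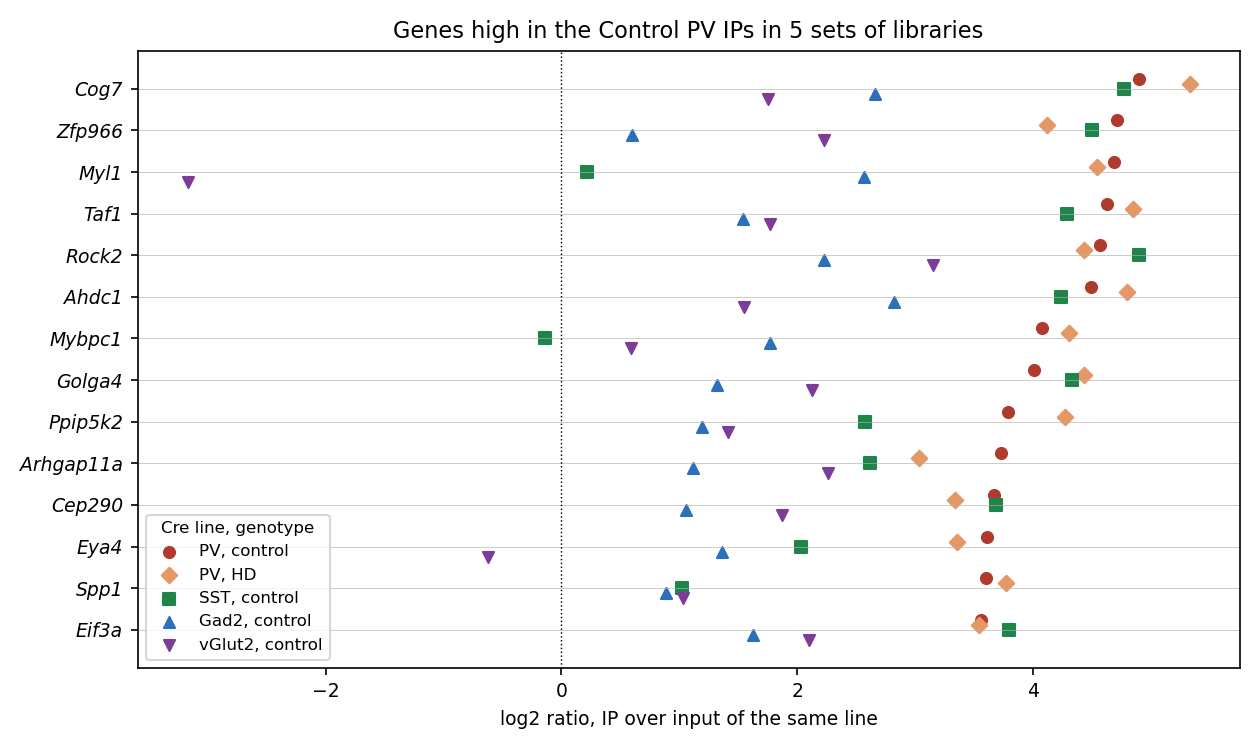
Log2 ratio of IP to input of genes named here among the highest ratios in PV mice, fitted separately in each control line and in HD PV mice. Cog7 is 4.90 in control PV mice and 4.77 in SST mice, while Myl1 is 4.69 in control PV mice and 0.22 in SST mice.

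Of the 10 lowest ratios all but 1 were of the mitochondrial genome, blood and microglia. The NADH dehydrogenase subunit gene mt-Nd3 stood at 0 in 4 of 6 IPs and at 4.21 and 3.97 CPM in the others, against 48.7, 103 and 42.3 CPM in the inputs, a log2 ratio of -5.48. DESeq2 did not call it (adjusted p 0.0653), and with so many IPs at 0 the ratio is uncertain. The ATP synthase subunit genes mt-Atp6 and mt-Atp8 had -4.73 and -4.51. The hemoglobin genes Hbb-bt, Hbb-bs, Hba-a2 and Hba-a1 had -4.79, -4.43, -4.37 and -4.29; each pair is nearly identical in sequence, so reads may be shared between its members. C1qb and Tyrobp, given above, and the histone gene Hist1h2bk, at -5.04, completed the 10. Gm14440, chosen after its values were seen, was called higher with inputs all at 0 and IPs at 8.67, 0, 1.73, 7.00, 4.07 and 0 CPM, so no fold is given.

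Genes of other types, with a mean count over 10, gave 379 of 1747 (21.7%) called higher and 399 (22.8%) lower. The pseudogene transcript Gm31166 stood at 12.3 to 25.8 CPM in the IPs and at 0.448, 0.476 and 0.334 CPM in the inputs, a log2 ratio of 5.24; its reads may belong to its parent gene. The unclassified transcripts E330034L11Rik and Gm42528 had 3.42 and 2.84, the antisense RNA Gm13629 3.04 and the processed transcript A330023F24Rik 2.71. The lowest were the small nuclear RNA genes Gm22317, Gm26444, Rnu1a1 and Gm22634 and the pseudogene Rpl30-ps9, which were at 0 to 0.0432 CPM in every IP. In inputs 1, 2 and 3 Gm22317 was at 11.3, 0 and 88.5 CPM, Gm26444 at 4.91, 0 and 31.5 CPM, and the other 3 were above 0 in input replicate 3 alone (31.9 CPM for Gm22634, 33.9 for Rnu1a1 and 27.6 for Rpl30-ps9). Since the groups overlap at 0 and these genes have near-identical copies, no fold is given.

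Which of these ratios set PV neurons apart from GABA neurons at large was tested as the difference between the PV and the Gad2 ratio, each against its own inputs. The 2 ratios share no library. Of 14734 genes 1662 (11.3%) were higher in PV and 2727 (18.5%) lower, with a median difference of 0.01. This balance turned with the setting: 2894 were higher and 1478 lower with library totals, 2251 and 2087 with filterByExpr, 2691 and 2130 in 1 fit with further cerebral libraries, and 2205 and 1869 without Gad2 IP replicate 6. Pvalb differed by 1.08 (edgeR adjusted p 0.0225) and Syt2 by 1.02 (adjusted p 3.80e-04). The difference was 1.09 for Kcnc2 (adjusted p 0.0919) and -0.21 for Pthlh (adjusted p 0.524), neither called. The Kcnc2 difference was called by DESeq2 (1.19), with library totals (1.36), in 1 fit with further libraries (1.26), and without Gad2 input replicate 3 (1.40) or PV input replicate 2 (1.42). That of Pthlh turned to 0.09 with library totals in place of TMM. Single Gad2 ratios were 1.59 for Pvalb, 1.47 for Kcnc2, 1.01 for Syt2 and 1.86 for Pthlh. Gad1, shared by both lines, differed by 0.31 (edgeR adjusted p 0.304), and was called with library totals (0.59).

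The call for Pvalb in that difference was near the threshold. It was lost when control PV input replicate 1 (0.97, adjusted p 0.0635), PV input replicate 2 (0.93, adjusted p 0.0591) or Gad2 input replicate 3 (0.85, adjusted p 0.0652) was left out.

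Several genes of the axon and its channels also differed. The difference was 1.62 for Ank1, 1.66 for Nefh and 1.63 for Kcnab3. Higher in PV were 6 of the 7 neurofilament and node genes, 7 of the 11 other PV genes and 8 of the 23 potassium channel genes, of which 1 more was lower. Lists of other cells also exceeded the 11.3% of all genes: 7 of 12 cortical and hippocampal glutamatergic genes were higher in PV, 4 of 5 precursor genes, 4 of 7 ependymal, 3 of 12 oligodendrocyte and 3 of 11 endothelial genes. The calls upward were thus not limited to PV genes, and the cause was not tested. Slc17a6 differed by 3.01. In the other direction, beside 18.5% of all genes, 16 of 16 striatal projection neuron genes were lower in PV, 9 of 13 microglia genes (median -1.57), 10 of 18 other interneuron genes, 8 of 13 forebrain interneuron factors, 72 of 79 ribosomal protein genes and 40 of 92 nuclear oxidative phosphorylation genes.

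The 5 largest differences upward included giant cytoskeletal proteins. Macf1, a linker of actin and microtubules, averaged 148 CPM in the PV IPs and 16.0 in their inputs, against 42.6 and 53.1 CPM in Gad2 mice, a difference of 3.52. Dst, its relative dystonin, averaged 285 and 31.4 CPM against 83.3 and 83.8 CPM, a difference of 3.19. Atoh7, a factor known from the retina, differed by 3.55 at 6.25 CPM in the PV IPs, the centrosomal gene Cntrl by 3.34 and the RNA surveillance kinase gene Smg1 by 3.15. Without Gad2 input replicate 1, Smg1 fell to 1.52 (adjusted p 0.101) and was not called. The inputs of the lines differed as well. Macf1, Dst, Cntrl and Smg1 averaged less in the PV than in the Gad2 inputs, Smg1 at 6.60 against 30.0 CPM. Its IPs averaged 54.1 and 27.6 CPM. Inputs of Atoh7 were closer, at 1.01 and 1.27 CPM. The part of the inputs in these differences was not tested.

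Downward, Penk averaged 58.7 CPM in the PV IPs and 412 in their inputs, against 1991 and 293 CPM in Gad2 mice, a difference of -5.58. Ppp1r1b followed at -5.52, Tac2 at -5.42, the tryptophan-degrading enzyme gene Ido1 at -5.35 and the lectin receptor gene Clec12a at -5.18. Penk, Ppp1r1b and Ido1 are on the list of striatal projection neuron genes, which Gad2 mice also tag.

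Against somatostatin neurons, the other interneuron line, fewer genes were called. Of 14769 genes 271 (1.83%) were higher in PV and 219 (1.48%) lower, with a median difference of 0.01. With the animal as a block 71 were higher and 39 lower. That fit pairs libraries and also uses only animals with both an IP and an input, and the 2 changes were not told apart. Without PV input replicate 1, 179 were higher, and without SST input replicate 3, 143 were lower. With library totals the balance turned to 179 higher and 368 lower. Pvalb differed by 3.02 (edgeR adjusted p 6.65e-05), Syt2 by 1.81 (adjusted p 2.86e-05) and Pthlh by 1.67 (adjusted p 1.59e-04). Kcnc2 differed by 1.17 (adjusted p 0.155), not called. In SST mice alone the log2 ratios were -0.23 for Pvalb, 0.34 for Syt2, 0.09 for Pthlh and 1.51 for Kcnc2, and in vGlut2 mice -1.47, -0.77, -1.04 and 0.66. The difference from vGlut2 mice was not tested.

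Upward, the largest difference from somatostatin neurons was that of Myl1. It averaged 22.7 CPM in the PV IPs and 0.900 in their inputs, against 1.40 and 1.23 CPM in SST mice, a difference of 4.50 (adjusted p 9.46e-07). Mybpc1 averaged 30.3 and 1.76 CPM against 1.35 and 1.51 CPM, a difference of 4.27 (adjusted p 2.48e-05). Every PV IP of both genes was above every SST IP. Cox8b and Cox6a2 differed by 3.45 and 3.27, and the vasoactive peptide gene Adm by 3.15. Tnni3, a heart troponin outside the naming rule and chosen after its values were seen, came next at 3.12.

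Further PV genes differed from somatostatin neurons as well. The difference was 2.62 for Spp1, 2.18 for Acan, 1.62 for Vamp1, 1.52 for Hapln4 and 1.39 for Gad1. The PV ratio of Acan alone was not called. Higher in PV were 8 of the 11 other PV genes, 5 of 23 potassium channel genes and 6 of 92 nuclear oxidative phosphorylation genes, beside 1.83% of all genes. Vesicle release genes had 3 higher and 3 lower, and 6 of 18 other interneuron genes were lower, beside 1.48% of all genes.

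Among the genes lower in PV the largest difference was that of Sst. It averaged 105 CPM in the PV IPs and 294 in their inputs, against 1419 and 137 CPM in SST mice, a difference of -4.85 (adjusted p 3.32e-08). Tac2 differed by -3.74, with a ratio of -3.66 in PV mice and 0.12 in SST mice, neuropeptide Y from Npy by -3.45, the dynorphin precursor gene Pdyn by -3.41 and the muscle myosin gene Myh4 by -2.78. With the animal as a block, Cox8b (3.90, adjusted p 0.104) and Myh4 (-2.19, adjusted p 0.105) were no longer called.

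HD PV mice, which share no library with the controls, gave the same comparison again. Of 14874 genes 4107 (27.6%) were called higher in the IP and 3895 (26.2%) lower, with a median of 0.04. Of the 4184 genes called higher in controls and tested in HD mice, 3626 (86.7%) were called higher there, and of the 4538 called lower 3575 (78.8%) were called lower. Every gene called in both had the same direction. The HD ratios were 2.68 for Pvalb, 2.67 for Kcnc2, 2.59 for Syt2 and 1.59 for Pthlh. Those of Cog7, Myl1, Mybpc1 and Spp1 were 5.33, 4.54, 4.31 and 3.77. All 11 other PV genes were called higher in HD mice too (median 2.16), and 13 of 13 microglia genes lower (median -3.07). Of 12 hindbrain Hox genes 0 were called in HD mice by edgeR, with a median of 0.76, and of 11 caudal genes 4 were higher and 1 lower, with a median of 0.85. The control minus HD difference of ratios was called for 0 of 14791 genes (0%) by edgeR, 246 of which had an unadjusted p under 0.05. By DESeq2 it was 0 as well, with 315 unadjusted. These counts do not show that the ratios were equal.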

How the data were processed

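RNA was sequenced from RiboTag IP and input preparations, and the authors deposited estimated counts per gene for 55401 mouse genes and 92 spike-ins, without normalization. The submitters' notes give STAR and Salmon on GRCm38.p6 through nf-core/rnaseq, and the sources do not state an annotation release. Fractional values made up 8.57%, and all counts were rounded. Gene types and exon lengths came from GENCODE M21 by Ensembl identifier, which matched 55141 genes. Spike-ins were left out.

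The 6 IP and 3 input libraries were compared with edgeR 4.0.16 in R 4.3.3 (TMM, quasi-likelihood test), keeping protein-coding genes whose counts averaged more than 10, and p-values were adjusted by Benjamini-Hochberg over all genes tested. An adjusted p of 0.05 or less was called, and calls of at least 2-fold were counted too. Differences of ratios were contrasts in 1 fit of 4 groups. The SE was derived from the log2 value and its F statistic (absolute value over root F). The code of the fits was also run on simulated counts. Those had few changed genes and a smaller spread between replicates than the control PV libraries. The run therefore does not measure error rates in these data, where most genes were called. Among pairs of control PV IPs and pairs of control PV inputs none was a duplicate. Their smallest chi-square, scaled by its degrees of freedom, was 7.92.

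Animal codes in the descriptions link 3 inputs to IPs. Across genes, which are not independent replicates, deviations from the group means correlated at 0.452 (BP9), 0.096 (BP30) and 0.742 (BP31) within an animal, and at 0.437, 0.249 and -0.275 between libraries of the same replicate number. No block was used in the reported fit, and the animal was an alternative block. A block by animal takes ratios only from animals with both an IP and an input, so it uses fewer libraries.

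Genes named were members of the 33 lists, the 15 highest and 10 lowest ratios (called, groups not overlapping, at least 5 CPM), the 5 largest differences in each direction, the 5 highest and lowest genes of other types, and Rpl22 with its paralog. Some genes that this rule names are withheld and are not reported here. Members and lists were chosen with earlier results of these data known. Alternatives were DESeq2 1.42.0, its size factors, library totals, no filter, filterByExpr, all gene types, all control cerebral inputs, HD libraries with genotype as a covariate, the animal as a block or as a random effect (limma 3.58.1), further cerebral libraries in 1 fit, and leaving out each library. Promoters came from RefSeq (GRCm38.p6). Figures were drawn with matplotlib 3.10.9 under Python 3.11.15 (pandas 2.3.3, numpy 2.4.6). After the data were seen, exclusions of both BP31 libraries and of IP replicates 2, 4 and 6 were added.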

Additional observations from a re-analysis of the deposited data

Results flagged for a closer look

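Among 137 groups of 6 IP libraries examined, 14 held a value far from the other 5 by Dixon's test, which chance gives in about 1 in 20 groups. IP replicate 2 was the highest library for the cerebellar genes Car8 (249 CPM, next 62.3), Ppp1r17 (54.3 CPM, next 15.7), Gabra6 (27.0 CPM, next 3.22) and Cbln3 (96.3 CPM, next 18.8), and for their summed level (510 CPM, next 139). It was also the highest for Calb1 (312 CPM, next 135).

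IP replicate 6, from the animal BP31, was the lowest library for Slc17a6 (79.7 CPM, next 127), Cacnb4 (76.6 CPM, next 150) and Ppip5k2 (36.0 CPM, next 70.1). It was the highest for Cacnb1 (69.5 CPM, next 57.2), Bcan (186 CPM, next 147) and Cox8b (7.87 CPM, next 5.14). IP replicate 3 was the highest for Vamp2 (1047 CPM, next 888), and IP replicate 1 the lowest for Esrra (120 CPM, next 152).

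The IP to input ratio differed between PV and Gad2 mice by edgeR's test of the difference in 1662 genes upward and 2727 downward. The named log2 differences with a call were Pvalb 1.08, Syt2 1.02, Ank1 1.62, Nefh 1.66, Kcnab3 1.63 and Slc17a6 3.01. By the naming rule came Atoh7 3.55, Macf1 3.52, Cntrl 3.34, Dst 3.19 and Smg1 3.15 upward. Downward came Penk -5.58, Ppp1r1b -5.52, Tac2 -5.42, Ido1 -5.35 and Clec12a -5.18.

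Between PV and SST mice the ratio differed in 271 genes upward and 219 downward by the same test. The named log2 differences were Pvalb 3.02, Syt2 1.81, Pthlh 1.67, Spp1 2.62, Vamp1 1.62, Hapln4 1.52, Acan 2.18, Gad1 1.39 and, chosen after its values were seen, Tnni3 3.12. By the naming rule came Myl1 4.50, Mybpc1 4.27, Cox8b 3.45, Cox6a2 3.27 and Adm 3.15 upward, and Sst -4.85, Tac2 -3.74, Npy -3.45, Pdyn -3.41 and Myh4 -2.78 downward. The part that cerebellar transcripts and transcript length have in any of these values was not tested.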

How the results depend on the processing

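The IP to input counts of 4189 genes higher and 4562 lower stayed within 1.5 times under every setting, and genes called both as reported and under a setting had the same direction. With library totals in place of TMM they were 4866 and 3802, which moved the share of calls that were higher from 47.9% to 56.1% and the median of all genes to 0.12. Leaving out each library in turn gave 3556 to 4384 higher and 4098 to 4630 lower. All 4 PV markers were called under every setting, with ranges over the libraries left out of 2.60 to 3.04 for Pvalb, 2.26 to 2.97 for Kcnc2, 2.08 to 2.15 for Syt2 and 1.68 to 1.80 for Pthlh, and 4 to 4 called. Genes of other types (379 and 399) gave 298 to 385 higher and 316 to 412 lower over the libraries left out, and 408 and 405 with filterByExpr, 420 and 339 with library totals, and 421 and 389 by DESeq2. Exclusions chosen after seeing the data gave 4596 and 4568 without both BP31 libraries, and 3153 and 3607 without IP replicates 2, 4 and 6, which has fewer samples.

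The PV minus Gad2 counts of 1662 and 2727 moved with the setting. Higher in PV were 2503 by DESeq2 (2571 lower, 49.3% of calls, against 37.9%), 2894 with library totals (1478 lower, 66.2%, median of all genes 0.30), 2251 with filterByExpr (51.9%, median 0.17), 2691 in 1 fit with further cerebral libraries (55.8%, median 0.16) and 1051 without the BP31 libraries (2140 lower), an exclusion chosen after seeing the data. The cause was not tested. Leaving out a library gave 1146 to 2205 higher and 1869 to 3001 lower, the lowest and highest number higher being without PV input replicate 3 and without Gad2 IP replicate 6 (54.1%, median 0.17).

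The PV minus SST counts of 271 and 219 were 179 and 368 with library totals (32.7% higher, against 55.3%, median -0.12), and 379 were lower by DESeq2. The replicate block by animal, which uses only animals with both an IP and an input, gave 71 and 39, and the cause was not tested. Leaving out a library gave 179 to 271 higher and 143 to 267 lower, the lowest without PV input replicate 1 and without SST input replicate 3. Control minus HD gave 0 to 0 calls by edgeR over the libraries left out, and 0 under each other setting.

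Of 129 further ratios named, 113 kept direction and side of the threshold throughout, and of 39 differences 32 did; the causes of the changes were not tested. Drd1 turned positive with library totals (0.06), without input replicate 1 (0.02), input replicate 2 (0.06) or IP replicate 6 (0.01), and without IP replicates 2, 4 and 6 (0.06), and its range over libraries left out was -0.24 to 0.06. Cplx2 turned positive with library totals (0.02), with HD libraries and a genotype covariate (0.05), with the animal block (0.10) and without input replicate 3 (0.01), with a range over libraries left out of -0.20 to 0.01. The Cox7a2 log2 ratio turned positive with library totals (0.05), with all control inputs (0.04) and without input replicate 3 (0.01), with a range over libraries left out of -0.18 to 0.01. The Gabra6 log2 ratio turned to -0.06 without IP replicate 2 and ranged up to 3.16. Without IP replicates 2, 4 and 6, Gabra6 was -1.61, Pcp2 -0.89 and Cbln3 -1.29. The PV minus Gad2 difference of Pthlh was 0.09 with library totals.

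Other changes were of calls alone. Acan was called with library totals (0.47), all control inputs (0.53), the covariate (0.63), the animal as a random effect, without input replicate 3 (0.54) and without BP31 (0.50). Slc1a2 was called without input replicate 2 (0.90) and with the random effect, Calb1 with all control inputs, and Cox7a1 with all control inputs (-0.71) and with the covariate (-0.97). DESeq2 lost mt-Nd3 (adjusted p 0.0653). Hoxa5 was lost without input replicate 1 (1.71, adjusted p 0.0501), and with Myh11 without IP replicates 2, 4 and 6. Car8 was called without IP replicate 1, 3 or 5 (2.44, 2.44 and 2.42), and Ppp1r17 without IP replicate 1 (2.68). Car8, Ppp1r17 and Pcp2 were called by DESeq2 (2.24, 2.48 and 3.08) and with all control inputs (1.98, 2.30 and 2.63), Car8 and Ppp1r17 with the covariate (2.42 and 2.51), and Car8 with the random effect (1.95). The difference of Kcnc2 from Gad2 was called by DESeq2 (1.19), with library totals (1.36), in 1 fit with further libraries (1.26), and without Gad2 input replicate 3 (1.40) or PV input replicate 2 (1.42), and that of Gad1 with library totals (0.59). The block by animal lost Ndnf (adjusted p 0.0522), called all 5 cerebellar genes, lost Cox8b and Myh4 against SST, and changed no other call of a named gene.

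Only 3 inputs were available, and replicate 3 of them was low in long transcripts. Genes near 0 in a group rest on few counts. Ratios are relative to the bulk of genes and do not give absolute amounts, and antibody background and cell number are not among the sample records. Bulk ratios do not say which cells hold an mRNA.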
